A study of Mus musculus with 9 samples.

Results

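The inflammasome and interleukin-1 (IL-1) group described here is a set of 10 genes of the 56775 listed in each deposited table, chosen by symbol, by a rule that uses no measured value, although with earlier results of these data known. It comprises the sensors Nlrp3, Nlrc4 and Aim2, the adaptor Pycard, the protease Casp1, the pore-forming protein Gsdmd, the cytokines Il1a, Il1b and Il18, and the IL-1 receptor antagonist Il1rn. RNA was measured in bulk in bone marrow-derived macrophages, cells grown from the femoral marrow of C57BL/6 mice with L-929 supernatant, which contains the macrophage growth factor M-CSF secreted by that fibroblast line. There were 3 groups of 3 libraries: untreated wild-type (WT) cells collected at 0 h, WT cells given oxidized LDL (ox-LDL, 20 µg/mL) for 24 h, and cells from MKP5-/- mice given the same treatment for 24 h. MKP5, the product of Dusp10, is a phosphatase that inactivates the stress-activated MAP kinases p38 and JNK. Ox-LDL is the form of LDL that scavenger receptors bind and that turns macrophages of the arterial wall into foam cells.

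The marrow came from MKP5-/- mice, so the deletion was present while the macrophages formed. MKP5-/- cells at 0 h and untreated WT cells at 24 h were not analysed here. The first comparison, WT at 24 h against WT at 0 h, therefore cannot tell ox-LDL apart from the longer culture, and the second, MKP5-/- against WT at 24 h, holds for treated cells. The labels do not say whether the libraries of a group came from separate mice, so p-values measure the spread between these libraries, which may be technical.

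Inflammasomes are cytosolic complexes in which a sensor recruits the adaptor ASC (the product of Pycard), which in turn recruits and activates caspase-1. Active caspase-1 cleaves the precursors of IL-1β and IL-18 and cleaves gasdermin D, whose amino-terminal part forms pores in the plasma membrane. Transcription of Nlrp3 and Il1b is known to be raised by Toll-like receptor and NF-κB signalling, a step called priming, and IL-1 receptor antagonist occupies the IL-1 receptor without signalling. In macrophages of atherosclerotic lesions, cholesterol crystals are a known activator of the NLRP3 inflammasome. RNA levels, as measured here, do not report on cleavage or secretion.

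Promoter sequences are shown for the 2 members with the largest changes in RNA level, Il1b and Il1rn, and for Nlrp3, the sensor that is known to be induced together with Il1b. Il1a, Il1b and Il1rn all lie on chromosome 2. Each sequence holds the 250 bases before a RefSeq transcription start on the mouse build GRCm38.p6, written 5′ to 3′ on the strand of the gene, with motif matches in capitals.
Il1b, chr2:129371140-129371389, minus strand: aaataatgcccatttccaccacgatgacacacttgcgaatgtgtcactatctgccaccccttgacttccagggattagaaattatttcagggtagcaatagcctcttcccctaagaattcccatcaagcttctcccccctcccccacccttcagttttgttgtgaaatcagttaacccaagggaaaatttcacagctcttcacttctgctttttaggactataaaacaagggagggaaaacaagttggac
Il1rn, chr2:24345121-24345370, plus strand: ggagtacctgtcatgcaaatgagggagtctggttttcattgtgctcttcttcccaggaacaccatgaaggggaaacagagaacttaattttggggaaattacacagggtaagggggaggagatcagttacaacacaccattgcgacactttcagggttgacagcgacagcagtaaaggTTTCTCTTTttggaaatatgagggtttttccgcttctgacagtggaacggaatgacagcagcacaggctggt
Nlrp3, chr11:59541319-59541568, plus strand: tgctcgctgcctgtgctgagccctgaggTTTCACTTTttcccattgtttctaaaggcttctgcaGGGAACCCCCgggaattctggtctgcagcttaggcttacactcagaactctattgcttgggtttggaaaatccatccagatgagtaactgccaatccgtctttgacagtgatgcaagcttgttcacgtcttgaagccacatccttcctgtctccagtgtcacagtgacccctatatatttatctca
The Il1rn sequence is 1 of 3 RefSeq promoter windows of that gene, and it holds a match in these bases, as does 1 of the Il1rn windows not shown. The Nlrp3 sequence is 1 of 2, shown because it holds a match in these bases. The windows searched ran from 250 bases before to 50 bases after each start, and 9 of the 10 members had at least 1. Both strands were searched for the κB consensus, for TGANTCA (bound by AP-1), for AAANNGAAA (the core of the interferon-stimulated response element, ISRE), for TTGCNNAA (bound by C/EBP factors) and for GAGGAAGT (bound by PU.1). In the Nlrp3 window the capitals mark an ISRE core match that starts 222 bases upstream and a κB match that starts 186 bases upstream, and the matches do not overlap. The other Nlrp3 window held no match. In the Il1rn window they mark an ISRE core match that starts 72 bases upstream. Of the other Il1rn windows, 1 overlaps it and holds the same ISRE core match, which there lies after that window's own start. The remaining window holds an AP-1 match that starts 141 bases upstream and no ISRE core. The Il1b window held none of the 5 motifs, which says only that these letters are not in it. The 9 members had 12 windows. The κB consensus was found in 1 of these 12 and in 4.51% of all 32851 RefSeq promoter windows. TGANTCA was found in 2 of the 12, against 7.81% of all windows, and TTGCNNAA in 2, against 10.8%. GAGGAAGT was found in 2, against 3.2%, and AAANNGAAA in 3, of which 2 overlap and hold the same match, against 10.6%. Counted by member, the κB consensus was found in 1 of 9 and each of the other motifs in 2 of 9. A match is a description of the letters and not a measured binding site.

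Dusp10, the deleted gene, was checked first. Its reads numbered 41, 48 and 44 at 0 h, 43, 38 and 40 in treated WT cells, and 4, 6 and 4 in MKP5-/-, which went with the labels. Depth ran from 11081955 to 19779951 recovered reads per library, and the 3 MKP5-/- libraries were the shallowest. The macrophage label went with the markers: all 8 macrophage markers (among them Adgre1, Csf1r and Lyz2) had reads in each group, with a summed level of 7270 to 7650 CPM (recovered reads per 1000000 of the scaled library) in WT at 0 h, 17800 to 20600 in WT at 24 h and 11900 to 13800 in MKP5-/-. Lyz2 made up much of that sum, with means of 3020, 10900 and 5760 CPM, and the markers did not move as one. In WT at 24 h 6 rose, whereas Cd68 (1250 to 840 CPM) and Fcgr1 (344 to 123 CPM) fell, and between genotypes 4 were lower, 2 higher (Cd68 and Fcgr1), and Adgre1 and Itgam passed no test. Markers of other cells differed between groups as well. Summed neutrophil markers were at 103 to 112 CPM in WT at 0 h, 0.221 to 0.783 in WT at 24 h and 0.581 to 1.03 in MKP5-/-, and Camp, Elane, Retnlg and Ly6g had 0 reads in both 24 h groups. Summed classical monocyte markers were at 438 to 464, 39.7 to 51.7 and 47.2 to 53.6 CPM, and summed fibroblast markers at 1.85 to 3.31, 81.4 to 99.4 and 7.63 to 16.7 CPM, in the same order of groups. The fibroblast sum was carried by Col1a1, Col1a2, Col3a1 and Postn, while Pdgfra averaged 0.663, 0.51 and 0.795 CPM, Dcn 0.425, 0.247 and 0.606 CPM, and Lum had at most 3 reads in a group. Dendritic cell markers summed to at most 2.06 CPM and T, B and NK cell markers to at most 0.38 CPM in any library. The part of these cells in the results below was not tested, and in bulk RNA fewer cells of a type and less RNA per cell cannot be told apart.

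After 24 h with ox-LDL, WT macrophages had 10.6-fold more Il1b RNA and 8.92-fold less Il1rn RNA than at 0 h. Nlrc4 and Pycard also rose, while Nlrp3, Casp1, Gsdmd and Il18 fell by less than Il1rn did. Of the 9 members that could be tested, 3 rose, 5 fell and 1, Aim2, did not pass the test, where 27.4% of all 14794 tested genes were called higher and 28% lower. The members' median log2 fold change was -0.29, beside 0.01 for all tested genes. Calls are from limma with Benjamini-Hochberg adjustment over all tested genes at an adjusted p under 0.05.

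Loss of MKP5 in treated cells went with more Il1b, Il1rn and Casp1 RNA and with less Il18, Nlrc4 and Aim2 RNA. Thus 3 of the 9 tested members were higher and 3 lower in MKP5-/- than in WT at 24 h, and Nlrp3, Pycard and Gsdmd did not pass the test. Among all tested genes 11.8% were called higher and 16.8% lower, that is 1739 and 2491 genes, a split that turned to 2493 higher and 1587 lower with upper-quartile scaling of the libraries. The members' median log2 fold change was 0.07, beside -0.05 for all tested genes. Set against WT at 0 h, MKP5-/- cells at 24 h had 2 members higher (Il1b and Pycard) and 5 lower (Nlrp3, Aim2, Gsdmd, Il1rn and Il18), where 24.9% of tested genes were called higher and 31.2% lower. The first 2 comparisons share the WT 24 h libraries, so a library that is high or low there moves both in opposite directions.

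**Figure D1:**
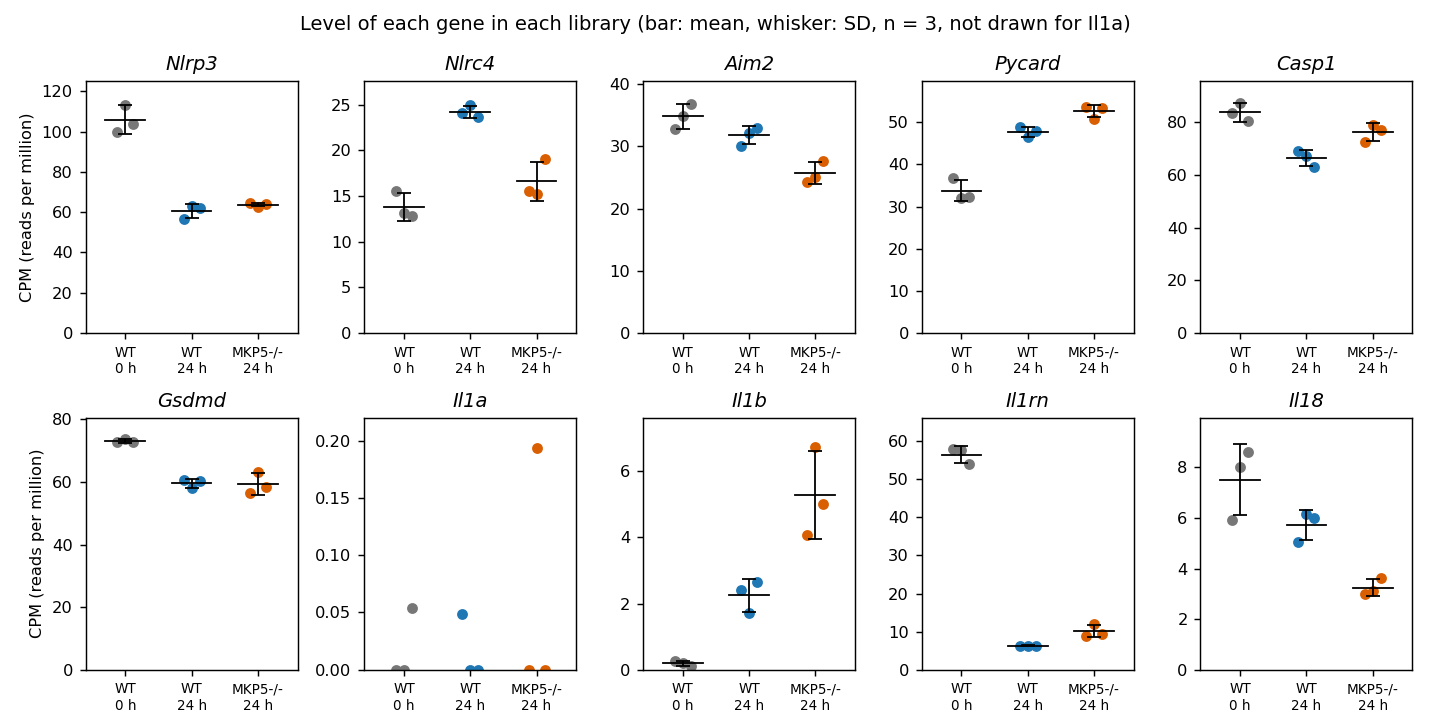
Level of each of the 10 genes in each library, in CPM on linear axes that start at 0, with 1 panel per gene (points: libraries, bar: mean, whisker: SD, n = 3; no mean is drawn for Il1a). Il1rn stood at 54.1 to 58.0 CPM in WT at 0 h and at 6.24 to 11.9 CPM in the 6 libraries at 24 h, while Il1b stood at 0.108 to 0.272 CPM and at 1.7 to 6.72 CPM.

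**Figure D2:**
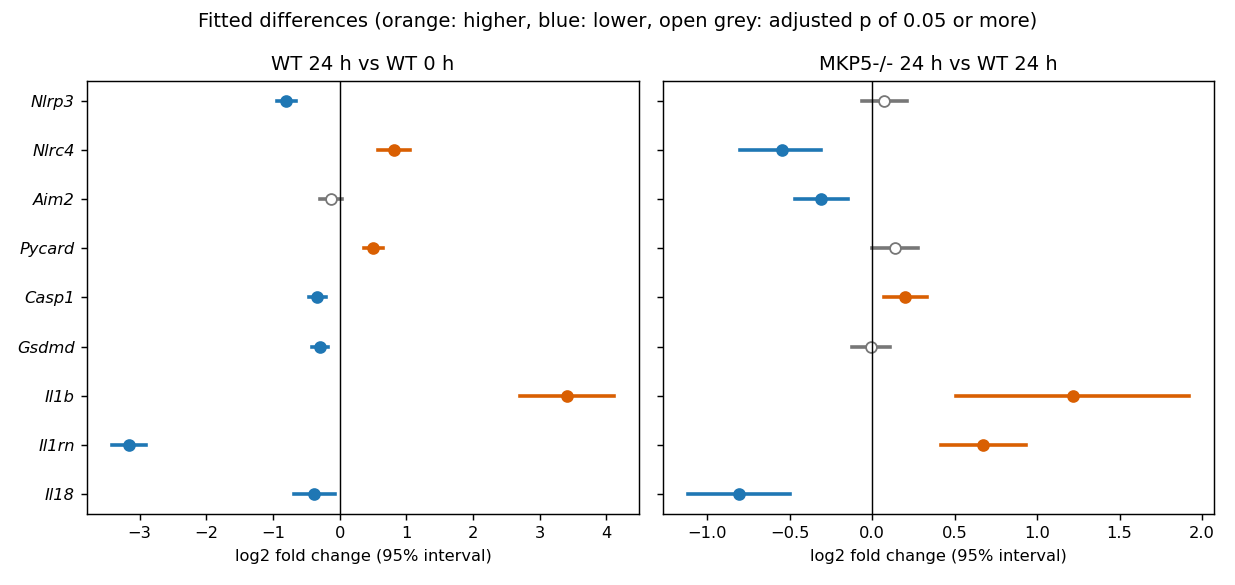
Log2 fold change of the 9 tested members with its 95% interval, for WT at 24 h against WT at 0 h (left) and MKP5-/- against WT at 24 h (right), with a separate horizontal axis for each panel. In the left panel Il1b lies at 3.41 and Il1rn at -3.16, and in the right panel both lie above 0, at 1.22 and 0.67.

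Among the sensors, NLRP3 responds to many forms of cell damage, potassium efflux among them. Nlrp3 was at 99.7, 113 and 104 CPM in WT at 0 h, at 56.6, 63.2 and 62.1 CPM in WT at 24 h, and at 64.4, 62.8 and 64.2 CPM in MKP5-/-. All 6 libraries at 24 h were below all 3 at 0 h, and the 2 genotypes overlapped. The log2 fold change at 24 h was -0.80 ± 0.0634 (SE), with an adjusted p of 1.06e-06 in limma. Between genotypes it was 0.07, with a 95% interval from -0.06 to 0.21 and an adjusted p of 0.399.

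NLRC4 assembles an inflammasome when NAIP proteins bind bacterial flagellin or secretion-system proteins. Nlrc4 was at 15.5, 13.1 and 12.8 CPM in WT at 0 h, at 24.1, 24.9 and 23.6 CPM in WT at 24 h, and at 15.5, 15.2 and 19.0 CPM in MKP5-/-. The treated WT libraries stood above all others, and the MKP5-/- libraries overlapped those of WT at 0 h. It rose by 0.82 ± 0.111 on the log2 scale in WT (limma, adjusted p = 7.55e-05) and was lower in MKP5-/- than in WT at 24 h, by -0.55 ± 0.111 (adjusted p = 0.00437). MKP5-/- at 24 h and WT at 0 h differed by 0.26, with a 95% interval from 0.02 to 0.51 and an adjusted p of 0.0611, which passed the threshold in 6 of 18 alternative settings.

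AIM2 binds double-stranded DNA in the cytosol. Aim2 was at 32.8, 34.8 and 36.8 CPM in WT at 0 h, at 30.1, 32.1 and 33.0 CPM in WT at 24 h, and at 24.3, 25.0 and 27.7 CPM in MKP5-/-. The WT groups overlapped, and all 3 MKP5-/- libraries were below all 6 WT libraries. The WT groups differed by -0.13 on the log2 scale, with a 95% interval from -0.29 to 0.03 and an adjusted p of 0.16 in limma. MKP5-/- was lower than WT at 24 h by -0.31 ± 0.074 (adjusted p = 0.0112).

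Pycard, the gene for the adaptor ASC, was at 36.7, 32.1 and 32.4 CPM in WT at 0 h, at 49.0, 46.6 and 47.9 CPM in WT at 24 h, and at 53.7, 50.9 and 53.5 CPM in MKP5-/-. None of the 3 groups overlapped. The rise in WT was 0.50 ± 0.0648 on the log2 scale (limma, adjusted p = 4.97e-05). The difference between genotypes was 0.14 ± 0.0648 (adjusted p = 0.126), and it passed the threshold with upper-quartile scaling, at 0.23 with an adjusted p of 0.0349.

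Casp1, the gene for the protease itself, was at 83.5, 87.3 and 80.3 CPM in WT at 0 h, at 68.9, 67.0 and 63.1 CPM in WT at 24 h, and at 72.4, 78.9 and 77.2 CPM in MKP5-/-. The 3 groups did not overlap, with MKP5-/- between the WT groups. Casp1 fell by 0.34 on the log2 scale in WT at 24 h (SE 0.0571, limma, adjusted p = 0.000408). It was higher in MKP5-/- by 0.20 ± 0.0571 (adjusted p = 0.0245), a call that was lost without WT 24 h replicate 2 (adjusted p = 0.0584) or 3 (0.0816), without MKP5-/- replicate 2 (0.0787) or 3 (0.0577), and without the mean-variance trend and robust option (0.0601).

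Gsdmd encodes gasdermin D, the pore former of pyroptosis. It was at 72.8, 73.7 and 72.9 CPM in WT at 0 h, at 60.7, 58.1 and 60.2 CPM in WT at 24 h, and at 56.6, 63.2 and 58.5 CPM in MKP5-/-. The libraries at 24 h were all below those at 0 h, and the MKP5-/- libraries spread over the range of the WT libraries at 24 h and beyond it on both sides. Gsdmd fell by 0.29 in WT on the log2 scale (SE 0.052, limma, adjusted p = 0.000541). Between genotypes the log2 fold change was -0.01, with a 95% interval from -0.12 to 0.11 (adjusted p = 0.939).

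Il1b encodes the precursor of IL-1β. Its reads numbered 5, 4 and 2 at 0 h, 49, 37 and 60 in treated WT cells, and 56, 104 and 83 in MKP5-/-. These are 0.272, 0.206 and 0.108 CPM, then 2.4, 1.7 and 2.66 CPM, then 4.08, 6.72 and 5.02 CPM. The 3 groups did not overlap, MKP5-/- being the highest although its libraries were the shallowest. The log2 fold change was 3.41 ± 0.32 in WT at 24 h (limma, adjusted p = 4.07e-06), from a level at 0 h that rests on few reads. Il1bos, an antisense gene, overlaps Il1b, and whether the counting kept their reads apart by strand is not known. MKP5-/- exceeded WT at 24 h by 1.22 ± 0.32, or 2.32-fold, with a 95% interval from 0.51 to 1.92 (adjusted p = 0.0172). Without WT 24 h replicate 2, the lowest of its group, that difference was 1.03 with an adjusted p of 0.0701, and without MKP5-/- replicate 2, the highest of its group, it was 1.03 with an adjusted p of 0.065. MKP5-/- replicate 2 also had 5 reads each of the monocyte markers Ly6c2, Plac8 and Chil3 and of the neutrophil marker Ngp, where the other MKP5-/- libraries had 0 to 2, and the part of those cells in its Il1b level was not tested.

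Il1rn encodes the IL-1 receptor antagonist. Its reads numbered 1067, 1119 and 1000 at 0 h, 130, 136 and 143 in treated WT cells, and 123, 185 and 157 in MKP5-/-. The levels were 58.0, 57.6 and 54.1 CPM at 0 h, 6.36, 6.24 and 6.33 CPM in WT at 24 h, and 8.97, 11.9 and 9.5 CPM in MKP5-/-. Each MKP5-/- library was above each WT library at 24 h and far below each at 0 h. The log2 fold change was -3.16 ± 0.116 in WT (limma, adjusted p = 4.28e-09) and 0.67 ± 0.116, or 1.59-fold, between genotypes (adjusted p = 0.00189). Both calls held in all 18 alternative settings. All 6 classical monocyte markers and all 7 tested neutrophil markers fell at 24 h in WT as well, and their part in the fall of Il1rn was not tested.

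Il18 encodes the precursor of IL-18. Its reads numbered 109, 156 and 159 at 0 h, 103, 134 and 135 in treated WT cells, and 41, 48 and 60 in MKP5-/-. In CPM these are 5.92, 8.02 and 8.6, then 5.04, 6.15 and 5.98, then 2.99, 3.1 and 3.63. The WT groups overlapped, while all 3 MKP5-/- libraries were below all 6 WT libraries. The fall in WT, 0.38 on the log2 scale with an SE of 0.14, passed narrowly (limma, adjusted p = 0.0388). That call was lost in 7 of 18 alternative settings, with adjusted p up to 0.153: without WT 0 h replicate 2 or 3, without WT 24 h replicate 1 or 3, with no filter on low values, without both the trend and the robust option, and with the trend taken over CPM. The difference between genotypes was -0.81 ± 0.14, or 1.76-fold lower in MKP5-/- (adjusted p = 0.00199), and it held in all 18. Il18 and Il1b, both cleaved by caspase-1, thus differed between genotypes in opposite directions.

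Il1a encodes IL-1α, which acts through the same receptor as IL-1β and needs no cleavage by caspase-1. Its reads numbered 0, 0 and 1 at 0 h, 1, 0 and 0 in treated WT cells, and 0, 3 and 0 in MKP5-/-. All groups were at or under a floor of 3 reads, so Il1a was not tested and no difference was detectable at this depth.

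The balance of agonist and antagonist RNA was compared within each library on the deposited log2 scale, which is per gene length. Il1rn minus Il1b was 6.06, 6.42 and 7.11 in WT at 0 h, a mean of 6.53 ± 0.53 (SD, n = 3) or 92.5-fold more Il1rn. In WT at 24 h it was -0.14, 0.33 and -0.29, a mean of -0.03 ± 0.32 (SD, n = 3). In MKP5-/- it was -0.41, -0.71 and -0.62, a mean of -0.58 ± 0.15 (SD, n = 3), or 1.49-fold more Il1b per length. Per length, Il1rn thus exceeded Il1b in all 3 libraries at 0 h and in 1 of 3 in WT at 24 h, and Il1b was the higher in all 3 MKP5-/- libraries. The sign at 24 h rests on the lengths used, 5535 bases for Il1rn and 1907 for Il1b, which join all annotated exons of a gene. Not divided by length, Il1rn was above Il1b in all 9 libraries, at 10.1 against 5.27 CPM on average in MKP5-/- and 6.31 against 2.25 CPM in WT at 24 h. The differences follow from the 2 genes' own levels, and no separate test was made.

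**Figure D3:**
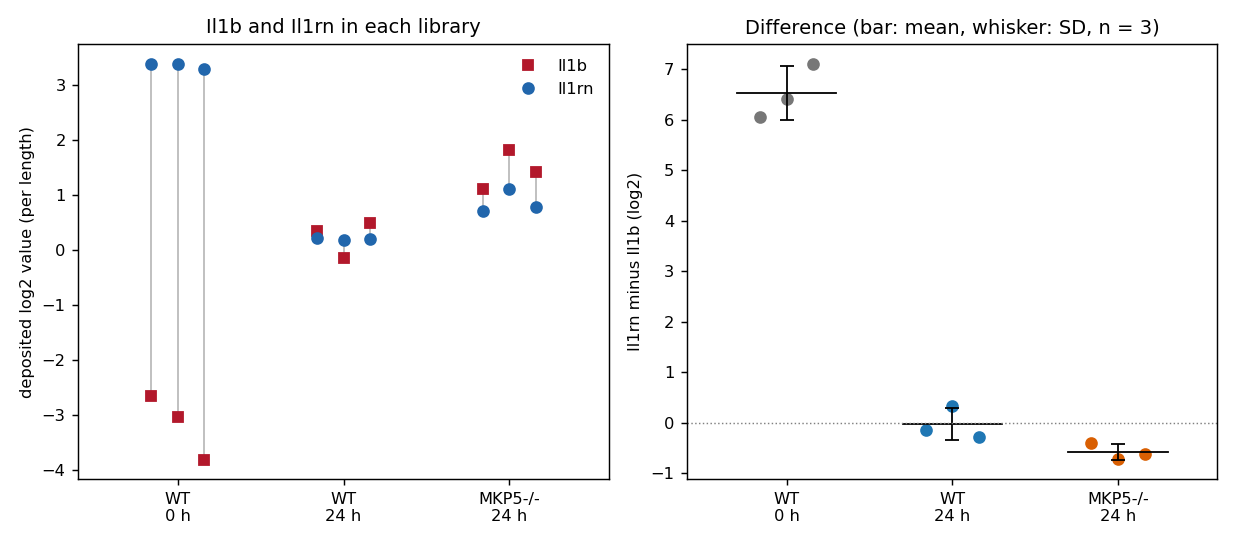
Left, the deposited log2 values per length of Il1b (squares) and Il1rn (circles), joined for each library. Right, Il1rn minus Il1b in each library (bar: mean, whisker: SD, n = 3), which is 6.06 to 7.11 in WT at 0 h, -0.29 to 0.33 in WT at 24 h and -0.71 to -0.41 in MKP5-/-.

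On the same per-length log2 scale, Gsdmd was the most abundant of the 10 members in each group, with mean levels of 4.94 ± 0.01, 4.65 ± 0.03 and 4.64 ± 0.08 (SD, n = 3) in untreated WT, treated WT and MKP5-/- cells. Casp1 followed at 4.74, 4.40 and 4.60, and in MKP5-/- its libraries overlapped those of Gsdmd. Nlrp3 was level with Casp1 at 0 h, at 4.70, and below it at 24 h, at 3.90 in WT and 3.98 in MKP5-/-. Il1rn came next at 0 h at 3.35, within the spread of Aim2 at 3.31, and stood at 0.20 and 0.87 at 24 h, the lowest mean after Il1a in both genotypes, although level with Il1b (0.23) in WT. This order rests on the lengths used, and that of Casp1 was fitted. Not divided by length, Nlrp3 and Casp1 had higher means than Gsdmd in each group, at 106, 83.7 and 73.1 CPM in WT at 0 h. The Nlrp3 and Gsdmd libraries overlapped in CPM at 24 h. Summed over the 10 members, the level was 402 to 420 CPM in WT at 0 h, 303 to 306 CPM in WT at 24 h and 303 to 318 CPM in MKP5-/-.

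The genes whose profile over the 9 libraries was nearest to a member's were sought among 12037 tested protein-coding genes with a name, by the root mean square difference of log2 values centred on each gene's mean. For Il1b they were Fat3 (0.33), Atp6v0d2 (0.34) and Tmem176b (0.37). The nearest to Il1rn were Ccr2 (0.17), a chemokine receptor of classical monocytes, Slc7a1 (0.18) and Helz2 (0.20). Nlrp3 had closer neighbours, Chmp4b (0.03), Prmt5 (0.04) and Preb (0.05), and Il18 was nearest to Cnrip1 (0.14), Eps8 (0.15) and Cd81 (0.16). Likeness of profile is a description over 9 libraries in 3 groups.

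Other genes of the pathway were followed in 6 lists, whose counts stand beside 27.4% of all tested genes called higher and 28% lower in WT at 24 h, and 11.8% higher and 16.8% lower between genotypes. Of 13 tested other sensors and caspases among 15, 6 rose in WT at 24 h (Nlrp1b, Naip5, Naip2, Casp12, Naip6 and Nod1) and 1 fell, Nod2, a sensor of bacterial peptidoglycan. Their median log2 fold change was 0.10. Casp12 had few reads, 3, 10 and 8 at 0 h and 29, 22 and 20 in WT at 24 h. Nlrp1b, itself an inflammasome sensor, rose by 1.23 on the log2 scale (limma, adjusted p = 1.39e-06), and Naip5, which binds flagellin for NLRC4, rose by 0.59. Between genotypes none was higher, and 4 were lower in MKP5-/-, with a median of -0.37 for the 13: Casp8 by -0.39, Nod1 by -0.83, Naip5 by -0.37 and Naip2 by -0.29. Leaving out 1 library ended the call in WT for Nod1 (0.45; WT 0 h replicate 1 or 2, WT 24 h replicate 1 or 3), with adjusted p up to 0.112 in any setting. It did so for Nod2 (-0.63; WT 0 h replicate 2 or 3, WT 24 h replicate 2), up to 0.0675, and for Naip6 (0.28; WT 0 h replicate 1, WT 24 h replicate 2 or 3), up to 0.0676. Between genotypes the call of Naip2 was lost without WT 24 h replicate 1 or 3 or MKP5-/- replicate 1 or 3, and under upper-quartile scaling. Its highest adjusted p in any setting was 0.0925. Nlrc4 and Naip5, which act in 1 complex, thus both rose in WT and were both lower in MKP5-/-. Of the other Naip genes listed, Naip2 was called likewise, and Naip6 did not pass between genotypes (-0.13, limma, adjusted p = 0.252). Naip1, with few reads, passed neither test. Both comparisons share the WT 24 h libraries. Reads of the Naip, Nlrp1 and Gbp families may have been split between near-identical copies.

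Cofactors, ion channels and other pyroptosis genes went both ways. Of 16 tested, 6 rose and 8 fell in WT at 24 h, with a median of -0.39. P2rx7, the ATP-gated channel whose opening activates NLRP3, was at 49.6, 54.2 and 52.2 CPM at 0 h, 136, 148 and 159 CPM in WT at 24 h, and 107, 118 and 123 CPM in MKP5-/-. It rose by 1.5 on the log2 scale (limma, adjusted p = 3.19e-08) and was lower in MKP5-/- by -0.35 (adjusted p = 0.00639). P2rx4, a related channel, rose by 0.70 and was higher in MKP5-/- by 0.36. Irgm1, an interferon-induced GTPase, changed by -2.01 in WT, Zbp1, a sensor of nucleic acids, by -3.64, and Serpinb1a, an inhibitor of neutrophil proteases, by -5.47, in the direction of the neutrophil markers, whose part in it was not tested. Between genotypes Gsdme, another gasdermin, was also higher (0.60), and Gbp7 (-0.82) and Ninj1 (-0.32), which mediates rupture of the membrane, were lower. The Ninj1 call was lost in 6 of 18 settings, without WT 24 h replicate 3 or MKP5-/- replicate 1 or 2 among them, with adjusted p up to 0.0997. The list's median was -0.02.

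Of the other IL-1 family ligands, Il36a, Il36b, Il36rn and Il1f10 had 0 reads in every library. Il36g had 23, 11 and 13 reads at 0 h and 0 in every WT library at 24 h, at least 18.0-fold lower against a floor of 3 reads for the group. It had 1, 0 and 1 reads in MKP5-/-, so both groups at 24 h were under the floor and no fold is given between them, although the fit called it higher. Il33, an alarmin, averaged 0.571, 0.483 and 0.939 CPM in the 3 groups and passed neither test.

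Among the 7 tested of 9 receptors and binding proteins, 1 rose and 3 fell in WT at 24 h, with a median of -0.60. Il1rl2, the IL-36 receptor, rose by 2.11 on the log2 scale (limma, adjusted p = 0.00327), with a 95% interval from 1.04 to 3.18. Its level at 0 h rests on few reads, 3, 14 and 8, against 36, 38 and 37 in WT at 24 h. Il18bp, which binds and neutralizes IL-18, fell by 1.37 (adjusted p = 4.56e-05), Il18rap, a chain of the IL-18 receptor, fell by 0.98, and Sigirr, an inhibitory receptor, fell by 0.60. The Sigirr call was lost in 11 of 18 settings, without any 1 of the WT 0 h libraries, WT 24 h replicate 1 or 3 or MKP5-/- replicate 3 among them, with adjusted p up to 0.152. In MKP5-/-, Il1rl1, the IL-33 receptor, was higher, at 4.81, 6.46 and 5.75 CPM against 2.45, 2.71 and 1.42 CPM in WT at 24 h, by 1.41 on the log2 scale (adjusted p = 0.00449). Sigirr was lower by -0.75 (adjusted p = 0.0339), lost in 9 of 18 settings, without replicate 2 or 3 of either group among them, with adjusted p up to 0.128. The list's median there was 0.02, and Il1r1 and Il1rap, the chains of the IL-1 receptor, did not pass either test. Il1r1 rests on few reads, 15, 3 and 15 at 0 h, 8, 16 and 14 in treated WT cells, and 9, 11 and 13 in MKP5-/-. Its 95% intervals, from -1.06 to 1.5 in WT and from -0.93 to 1.63 between genotypes, both include a log2 fold change of 1. The decoy receptor Il1r2 and the IL-18 receptor chain Il18r1 did not pass the filter and were not tested. Il1r2 had 15, 26 and 9 reads at 0 h, 4, 2 and 1 in treated WT cells, and 1, 0 and 2 in MKP5-/-, so both groups at 24 h were below all libraries at 0 h. Scaled for library size, WT at 0 h had 13.5 times the Il1r2 reads of MKP5-/- at 24 h (95% interval 4.37 to 67.8). That ratio joins genotype, ox-LDL and time. At 24 h WT had 1.65 times the Il1r2 reads of MKP5-/- (0.376 to 9.87). Il18r1 had 0, 0 and 1 reads at 0 h, 2, 0 and 0 in treated WT cells, and 2, 3 and 4 in MKP5-/-. At 24 h MKP5-/- had 6.38 times the Il18r1 reads of WT (1.32 to 60.6). These intervals cover counting error only.

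Of 12 genes that carry the signal of the IL-1 receptor, 5 rose and 4 fell in WT at 24 h, with a median of 0.03. The kinase Irak4 rose by 0.89 (limma, adjusted p = 4.73e-07) and Tab2 by 0.32, whereas Tollip and Peli1 fell by 0.44 and 0.63. Irak3 also rose, by 0.26, as did Tab1, by 0.32, and Irak2, by 0.14, while Traf6 fell by 0.36 and Tab3 by 0.33. The Irak2 call was lost in 13 of 18 settings, without any 1 of the WT 0 h libraries, replicate 1 or 3 of WT 24 h or replicate 2 or 3 of MKP5-/- among them, with adjusted p up to 0.139. Those of Tab1 (without WT 0 h replicate 1 or WT 24 h replicate 2 or 3, up to 0.119) and Tab3 (without WT 0 h replicate 2 or 3 or WT 24 h replicate 3, up to 0.0978) were lost in 4 and 3 settings. In MKP5-/-, 5 were lower and 1 higher than in WT at 24 h, with a median of -0.20. Irak3, which restrains the pathway, was at 28.0, 24.6 and 27.5 CPM against 35.3, 38.0 and 39.3 CPM, a log2 fold change of -0.49 (adjusted p = 0.000633). Map3k7, the kinase TAK1, was lower by -0.40, Traf6 by -0.38, Tab2 by -0.35 and Irak4 by -0.25, and Irak2 was higher by 0.26. The Irak4 call was lost without WT 24 h replicate 2 or 3, with adjusted p up to 0.0544.

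Of 12 genes of priming, 7 rose and 4 fell in WT at 24 h, with a median of 0.29. The NF-κB subunits Nfkb1, Nfkb2, Rela and Relb were among those that rose, by 0.51, 0.81, 0.22 and 0.91 on the log2 scale, and Tlr2 rose by 1.41 (limma, adjusted p = 1.68e-07). Tnf fell by 2.31, Ptgs2 by 2.25, Cd14 by 0.61 and Tlr4 by 0.49, so Il1b and Tnf, both cytokines induced by NF-κB, changed in opposite directions. Between genotypes they were both higher in MKP5-/-. Tnf was at 13.5, 12.5 and 11.1 CPM in MKP5-/- against 5.38, 4.36 and 5.27 CPM in WT at 24 h, a log2 fold change of 1.30 (adjusted p = 1.11e-05). Cd14, a co-receptor of TLR4, was higher by 0.60 and Nfkbiz, a nuclear cofactor of NF-κB, by 0.64, while Tlr2 was lower by -0.70 (adjusted p = 0.000302). The list's median between genotypes was -0.05, as for all tested genes.

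**Figure D4:**
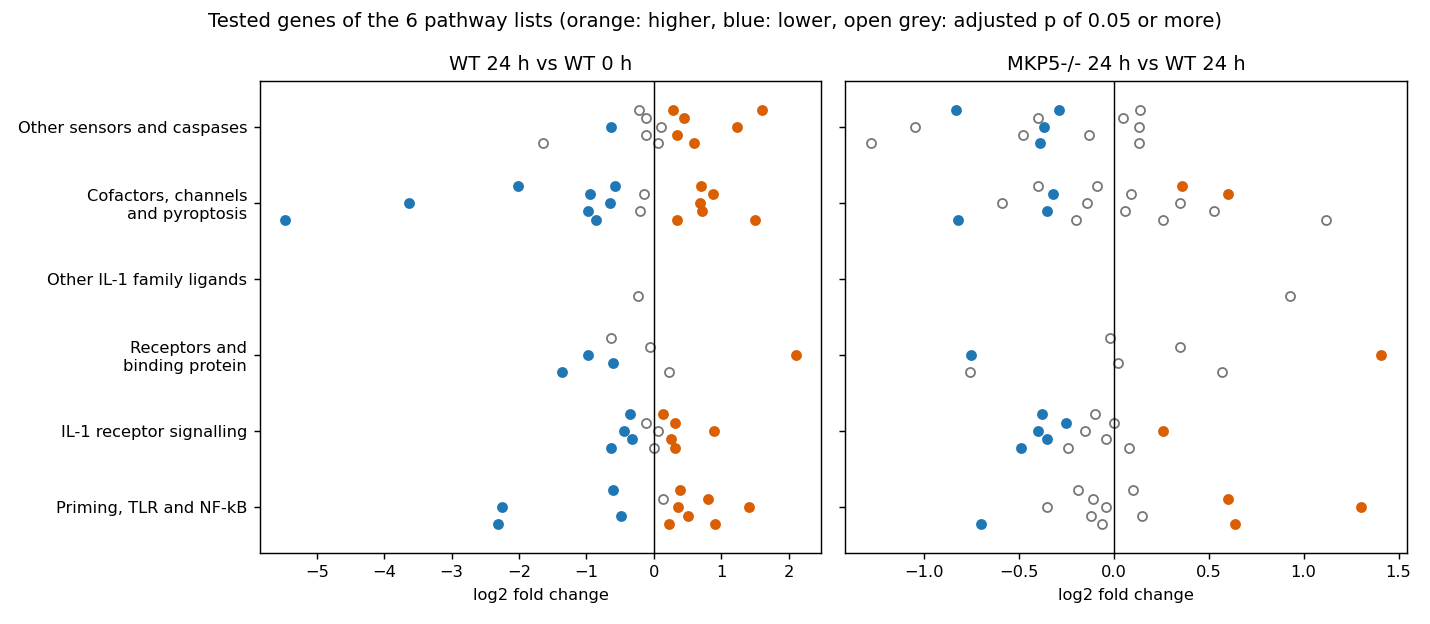
Log2 fold change of each tested gene of the 6 pathway lists, 1 point per gene, for WT at 24 h against WT at 0 h (left) and MKP5-/- against WT at 24 h (right), with a separate horizontal axis for each panel and Il36g left out because it had 0 reads in WT at 24 h. In the right panel the called points of the list of other sensors all lie below 0, from -0.83 to -0.29, and Tnf (1.30) and Il1rl1 (1.41) lie farthest to the right.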

How the data were processed

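Deposited tables held 1 log2 value per gene for 9 libraries, log2 normalized counts with a TMM scaling factor, per the file headers. Reads were aligned with STAR to GRCm39, per the submitters' processing notes, and how reads were assigned to genes (annotation, counting program, strand, shared reads) is not given in the sources used. Aim2, Pycard, Il1a, Il1b, Il18 and Nlrc4 overlap other annotated genes, so reads may be shared with those. The deposited log2 values follow log2((reads + 0.5) / length) with an offset for each library. With GENCODE M21 exon lengths, 96% of 38445 checkable genes gave whole reads within 0.004. Checkable genes were those with few reads in every library, genes without reads included, and each library's offset was itself set from genes without reads. The share therefore says little about genes with many reads, most members among them. For a further 7313 genes a length was fitted so that the reads came out whole, within a wider tolerance. These genes are therefore no check of the recovery. Casp1 (3136 bases) was among them, with a largest deviation of 0.041 reads. CPM are these reads per 1000000 of the TMM-scaled library.

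limma 3.58.1 (R 4.3.3, statmod 1.5.0, mean-variance trend, robust) was fitted to the deposited log2 values of all 9 libraries, with 1 mean per group. Testing covered the 14794 genes that reached 10 reads, scaled to median depth, in 3 or more libraries and 15 reads in all. Tests are two-sided, and p-values are adjusted by Benjamini and Hochberg over these genes. Log2 fold changes carry the deposited 0.5 reads, which pulls in large changes of low genes and, since libraries differ in depth, gives genes without reads a fold (0.51 between genotypes for Camp, at 0 reads in both). A count test had been planned only for deposited counts. The script was tested on simulated data. The 3 libraries of a group were not duplicates: between libraries of a group the chi-square per gene was 2.24 to 10.12.

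Members, lists and rules were chosen with earlier results of these data known. Named are all members, every gene behind a list count of 5 or fewer, up to 4 listed genes with the smallest p, and the 3 nearest profiles of 4 members. Alternatives covered scaling, filter, pseudocount, moderation, samples fitted, a replicate block and each library left out. Promoter sequences are from RefSeq (GRCm38.p6), with no coordinates converted. Python 3.11.15, numpy 2.4.6, pandas 2.3.3 and matplotlib 3.10.9 were used.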

Additional observations from a re-analysis of the deposited data

How the results depend on the processing

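The 27 tested values of single members were recomputed in 18 settings, and 460 of the 486 values kept their direction and their side of the threshold, 14 lost a call, 7 gained one and 5 changed sign. The sign changes were all in Gsdmd between genotypes, which no setting called: 0.04 with relative log expression scaling, 0.08 with upper-quartile scaling, and 0.01, 0.03 and 0.00 without WT 24 h replicate 1, MKP5-/- replicate 1 and MKP5-/- replicate 3, in a range of -0.05 to 0.03 with 1 library left out. The count of members higher in MKP5-/- than in WT at 24 h was 1 to 3 with 1 library left out, and 1 without WT 24 h replicate 2 or without MKP5-/- replicate 2. In WT at 24 h the mean of Il1rn minus Il1b was -0.21 to 0.09 with 1 library left out. Upper-quartile scaling moved the median of all genes in MKP5-/- at 24 h against WT at 0 h from -0.02 to 0.11. Whether replicate numbers pair the libraries cannot be told from 3 libraries a group. Correlations of deviations ran from -0.02 to 0.19 for same-numbered libraries and from -0.17 to 0.12 for differently numbered ones. With a replicate block the members higher and lower stayed at 3 and 5 in WT and at 3 and 3 between genotypes. The Il1b difference between genotypes was then 1.22 with an adjusted p of 0.0299 in limma. Few reads limit Il1a, Il36g and Il1r1, and Il1b, Il1rl2 and Casp12 at 0 h, among others.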
